A study of Mus musculus with 2 samples.

Results

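The histone genes described here are the 69 genes whose symbols start with Hist1h, Hist2h, Hist3h or Hist4h, together with H2afx and H2afz, out of 31053 genes measured. By symbol, 54 members belong to the Hist1 group, 10 to Hist2, 2 to Hist3 and 1 to Hist4. Expression was measured by single-cell RNA sequencing in corneal epithelial cells of CycB1-GFP mice, a genotype in which a green fluorescent reporter is tied to Cyclin B1, a cyclin of late cell cycle. Live GFP+ cells were sorted from peeled, trypsinised epithelium, so every cell came from 1 group with 1 genotype and no treatment, and the labels list 2 replicates of that group. No age, sex or number of animals was used. The barcodes fall into 2 libraries, numbered here by barcode ending (the labels do not tie these endings to their replicate numbers). With library as a block, the p-values below rest only on how differences between cell classes vary between these 2 libraries. That variation may be technical, and its estimate for each gene is drawn in large part from other genes.

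Nucleosomes wrap DNA around core histones H2A, H2B, H3 and H4, and linker histone H1 binds where DNA enters and leaves. Replication-dependent histone genes, the Hist genes, are transcribed mainly in S phase to package newly copied DNA, and most of their mRNAs end in a conserved stem-loop bound by the protein Slbp instead of a poly(A) tail. Replacement variants such as H2afz (H2A.Z, found at promoters) are made from polyadenylated mRNAs throughout the cycle, and H2afx (H2A.X, phosphorylated at DNA breaks) can give both kinds of mRNA. The libraries were made with 3' chemistry that primes on A-rich RNA, so a UMI (unique molecular identifier, 1 captured RNA molecule) of a Hist gene does not sample all of its mRNA. The levels below are levels of captured RNA.

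The 3' stem-loop was searched for in the annotated transcripts (GENCODE M21, GRCm38) and found in 47 of the 69 members. It is shown for 6 members, with the 6-base stem arms in capitals, because the arms of the H4 genes and of H2afx differ from those of the other classes.
Hist1h1e: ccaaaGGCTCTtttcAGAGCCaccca
Hist1h2ap: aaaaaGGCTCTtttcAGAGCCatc
Hist2h2ac: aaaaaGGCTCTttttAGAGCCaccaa
Hist1h3c: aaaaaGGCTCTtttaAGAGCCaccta
Hist1h4d: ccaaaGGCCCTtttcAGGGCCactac
H2afx: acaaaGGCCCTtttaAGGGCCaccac

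All 34 stem-loops of H1, H2A, H2B and H3 genes had the GGCTCT arm. Of the 12 H4 stem-loops, 10 had GGCCCT and 2 had GGTCCT, and H2afx had the GGCCCT arm of the H4 genes. Annotated transcripts of Hist1h2ap stop 3 bases after the loop, while those of Hist1h1e run on for 1153 bases, those of H2afx for 822 and those of Hist1h4d for 770. No stem-loop was found in the annotated transcripts of 22 members, among them Hist1h1b, Hist1h1a, Hist1h2bc and H2afz, and 17 of these 22 have no transcript 100 bases or more longer than its coding part. For those 17 the annotation is too short to show what follows the coding part.

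A-rich coding stretches differ by class too. The most A bases in any 20 coding bases ranged from 10 to 14 in H1 genes and from 7 to 8 in H3 genes, and were 8 in every H4 gene. The richest stretches of the highest Hist gene and of an H4 gene are shown with A in capitals.
Hist1h1b: AAgAAgAAgAcAAcgAAAAA
Hist1h4d: AAcAtccAgggcAtcAccAA

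Across the 69 members, UMIs and the A content of that stretch had a Spearman rho of 0.17, given as a description, since members share sequence and libraries.

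Promoter sequence (RefSeq, GRCm38.p6, 250 bases before to 50 after the start) was matched for 63 members. CCAAT, the letters bound by NF-Y, was searched on both strands (CCAAT or ATTGG) and lay in the window of all 50 matched H1, H2A, H2B and H3 genes but in 3 of 12 H4 genes, against 37.9% of 27025 promoters. TATAAA (or TTTATA) lay in 55.6% of member promoters against 14.2% of all. The octamer ATTTGCAT (or ATGCAAAT) lay in 20.6% against 1.75%, in 7 of 18 H2A and 6 of 16 H2B genes and in none of the other members. H2A and H2B genes often face each other, so a window can be shared by both. The 130 bases before the start are shown for 4 members whose class patterns are described below, with the motif letters in capitals.
Hist1h1b (chr13:21780626-21780755, minus strand): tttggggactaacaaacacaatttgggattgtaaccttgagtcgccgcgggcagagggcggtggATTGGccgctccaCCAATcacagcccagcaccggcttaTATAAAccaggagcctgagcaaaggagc
Hist1h2ap (chr13:21833476-21833605, minus strand): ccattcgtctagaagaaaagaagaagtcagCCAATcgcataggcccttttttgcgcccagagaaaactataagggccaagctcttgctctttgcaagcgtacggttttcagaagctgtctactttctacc
Hist1h4d (chr13:23581438-23581567, plus strand): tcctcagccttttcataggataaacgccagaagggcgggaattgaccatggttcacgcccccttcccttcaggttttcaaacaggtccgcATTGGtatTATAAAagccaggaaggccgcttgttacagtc
H2afz (chr3:137864357-137864486, plus strand): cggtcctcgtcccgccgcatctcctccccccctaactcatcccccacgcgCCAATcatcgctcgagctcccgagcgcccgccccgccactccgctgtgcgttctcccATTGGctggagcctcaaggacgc

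TATAAA starts 28 bases before the Hist1h1b start and 32 before the Hist1h4d start, and was not found in the H2afz window. These matches are letters in a window and were not tied to any level by a test.

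Barcodes with at least 500 genes and under 20% mitochondrial UMIs were kept, which left 6188 cells, 3187 in library 1 and 3001 in library 2, with a median of 5571 and 5886 UMIs. Of the barcode sequences, 4 occurred in both libraries among kept cells. Corneal epithelial markers (Krt12, Krt5, Krt14, Pax6, Aldh3a1, Tkt) were all detected and summed to 34565 CPM (UMIs of a gene scaled to the same total in every sum) in library 1 and 36912 in library 2. Immune markers summed to 11.7 and 35.3 CPM, and those of stromal keratocytes, vessels and red cells each to under 1 CPM.

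Members held 214124 UMIs, 0.586% of all. RNA was detected for 67 members, 42 of them with at least 100 UMIs and 25 with 1 to 99, while Hist1h2bq and Hist1h2ba had no UMI, which allows up to 3 UMIs for each. The 6 highest members held 84.9% of member UMIs: H2afz with 72509, the linker histone gene Hist1h1b with 41743, the H2A gene Hist1h2ap with 23509, the linker histone gene Hist1h1e with 18596, the H2A gene Hist1h2ae with 12939 and H2afx with 12432. H1 genes held 55.7% of the Hist UMIs although they are 6 of 67 genes. H2B, H3 and H4 genes each held under 3% of member UMIs. Priming and mapping differ between genes, so this order is one of captured RNA.

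Near-identical copies limit what a single symbol means. Of the 69 members, 32 share at least 50% of their 50-base stretches with other annotated genes, and 15 of these have at least 100 UMIs. The share was 93.1% for Hist1h2ap, 43.2% for Hist1h2ae and 0 for Hist1h1b and Hist1h1a. Hist1h1e overlaps Hist1h2be on the same strand, so reads of this pair may be split or set aside by the counting. Hist1h2ap and H2afx overlap predicted genes on the opposite strand only, and how the counting treated strand was not given in the sources used here.

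Cells were then classed by RNAs that are no members. S RNA cells had at least 4 UMIs of the replication genes Mcm5, Mcm6 and Pcna, and mitotic RNA cells at least 4 of Cdc20, Plk1 and Cenpa, each with at least 1 UMI of the proliferation genes Mki67 or Top2a and without meeting the other rule. Cells without any Mki67 or Top2a UMI that met neither rule stand for resting cells, although at this depth such a cell may still be cycling. Library 1 held 374 S RNA, 1071 mitotic RNA and 181 no-proliferation-RNA cells, and library 2 held 362, 1065 and 220. Cells meeting both rules (67 and 60), cells with Mki67 or Top2a RNA that met neither (1482 and 1283) and cells meeting a rule without Mki67 or Top2a (12 and 11) stayed out of the tests. Since GFP+ cells were sorted, the cells without proliferation RNA are a minority of a gated sample and not the resting epithelium at large.

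Over all cells of a class, summed Hist RNA was 4126 CPM in S RNA cells of library 1 and 5249 in those of library 2. It was 1560 and 2858 CPM in mitotic RNA cells, and 1012 and 605 CPM in cells without proliferation RNA. The cells with Mki67 or Top2a RNA that met neither rule were at 4526 and 5302 CPM, slightly above the S RNA cells of their own library. H1 genes ran from 2444 and 2961 CPM in S RNA cells to 867 and 1543 in mitotic RNA cells. The H2B sum showed no such order, at 104 and 91.0 CPM in S RNA cells, 71.6 and 100.2 in mitotic RNA cells and 98.3 and 81.7 in cells without proliferation RNA. Most of the H2B level in the last class came from 1 gene, Hist1h2bc, at 74.5 and 63.8 CPM. That gene was at 33.8 and 15.4 CPM in S RNA cells and 30.4 and 20.8 in mitotic RNA cells. The H2B sum therefore does not show the order of the other H2B genes. These sums have no test. Conjunctival keratins (Krt13, Krt4, Krt19) were higher in the cells without proliferation RNA, at 1884 and 3255 CPM against 156 and 253 in S RNA cells and 277 and 519 in mitotic RNA cells, with all 3 genes detected. Of the limbal or basal keratinocyte markers, Krt15 was highest there too, at 3099 and 8983 CPM against 982 and 1752 in S RNA cells and 1992 and 4014 in mitotic RNA cells. Gpha2 was at 238 and 571 CPM against 124 and 301, and 187 and 395, while Krt14 was at 8962 and 3974 CPM against 8921 and 4355, and 6385 and 4934. The part of these markers in the results against that class was not tested.

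For the tests, the 3 classes were matched on total UMIs within each library, which left 75 cells per class in library 1 and 91 in library 2. UMIs were summed per library and class, and the 6 sums were compared with edgeR's quasi-likelihood test with library as a block. A call is a Benjamini-Hochberg adjusted p under 0.05 over the 6322 genes tested, and CPM values of tested sums are normalised by TMM (edgeR's library scaling). Of the 69 members, 17 passed the filter on low counts, so nothing below holds for all members. The filter asks for enough counts in only as many sums as 1 class has. A gene can thus pass through the classes where it is high, as Hist1h2ak and Hist1h3e did. In cells without proliferation RNA, Hist1h2ak had no UMI and Hist1h3e had 1. Calls of such genes against that class partly follow from the filter, which was the same for all genes. The plot of levels by class shows their 6 values.

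**Figure D1:**
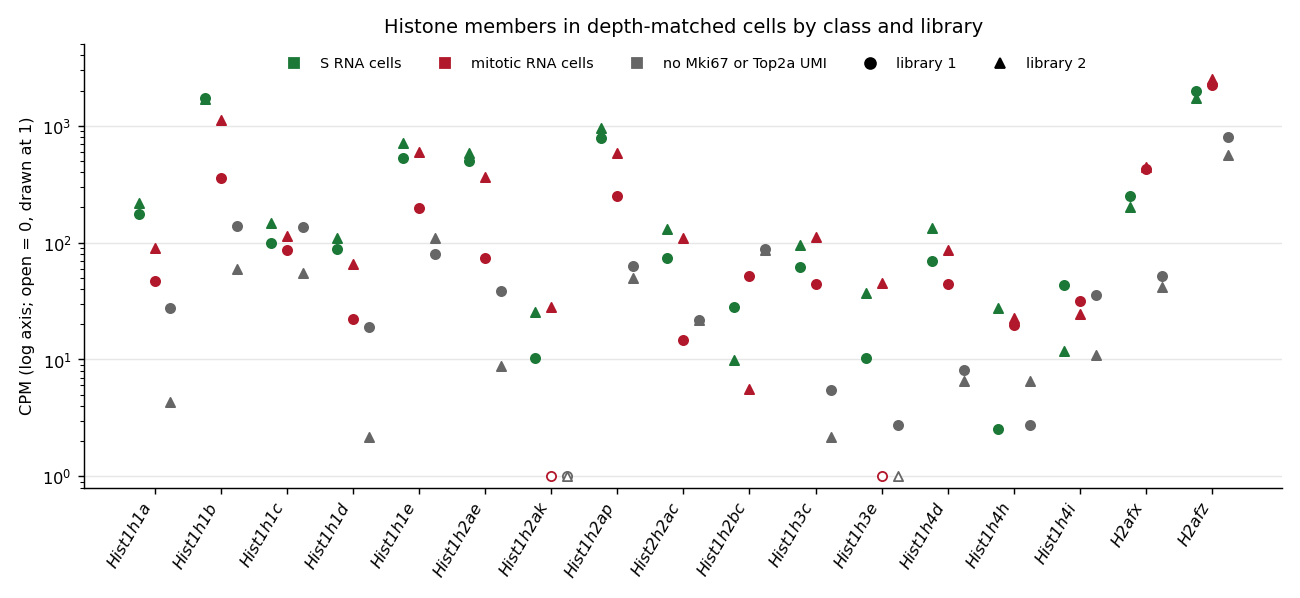
CPM (log axis) of the 17 tested members in the matched sums, with circles for library 1, triangles for library 2 and colours for the class; open symbols are sums of 0 UMIs. H2afx sits lowest in cells without proliferation RNA and highest in mitotic RNA cells in both libraries, while Hist1h1b ranges from 58.9 to 1711 CPM.

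Between S RNA and mitotic RNA cells, 2 of the 17 members were called higher in S RNA cells, against 2.59% of all genes, and 1 was called lower, against 2.85%. Hist1h2ap was 2.16-fold higher and the linker histone gene Hist1h1a 2.81-fold higher in S RNA cells, while H2afx fell to 0.52 of its mitotic level. The members' median log2 fold change was 0.33 and that of all genes was -0.00043. Of the 15 Hist genes, 11 had a positive value and 4 a negative one. With DESeq2 the calls of Hist1h1a (adjusted p = 0.9999) and H2afx (adjusted p = 0.175) were lost, and without the library block those of Hist1h1a (edgeR adjusted p = 0.168) and Hist1h2ap (edgeR adjusted p = 0.255).

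Among the H1 genes, Hist1h1a was at 175 CPM in S RNA cells of library 1 and 217 in library 2, and at 46.5 and 90.02 in mitotic RNA cells. The groups did not overlap, and the log2 fold change was 1.49 (SE 0.30, edgeR adjusted p = 0.00501). Hist1h1b was at 1711 and 1676 CPM in S RNA cells, and at 357 and 1112 in mitotic RNA cells. These values did not overlap either, but the mitotic level of library 2 was far above that of library 1, and the log2 fold change of 1.28 (SE 0.73) did not pass the test (edgeR adjusted p = 0.557). It was called under 2 of 10 alternatives with a test (fits in which edgeR's prior was infinite, so that a gene's own gap between libraries went unused, are not counted here or below): with class rules of at least 6 UMIs (log2 1.62, edgeR adjusted p = 8.56e-09), and with edgeR's prior estimated without its robust option, a setting chosen after seeing the data (0.00699). Hist1h1d had 87.3 and 110 CPM against 22.03 and 65.6, a log2 fold change of 1.12 (SE 0.38) that missed the threshold (edgeR adjusted p = 0.124). For Hist1h1e, 529 and 705 CPM in S RNA cells overlapped the 196 and 593 in mitotic RNA cells (log2 0.73, SE 0.22, edgeR adjusted p = 0.0738). Hist1h1c had 100.2 and 148 CPM against 85.7 and 114, with overlapping groups.

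Of the H2A genes, Hist1h2ap was at 778 and 965 CPM in S RNA cells and at 252 and 581 in mitotic RNA cells. The S values lay above both mitotic values, with a log2 fold change of 1.11 (SE 0.21, edgeR adjusted p = 0.00275). Hist1h2ae, at 496 and 589 CPM against 73.4 and 368, had a log2 fold change of 1.37 (SE 0.76) and was not called (edgeR adjusted p = 0.549), again with a wide gap between the mitotic sums of the libraries. The same 2 alternatives called it, with edgeR adjusted p-values of 4.222e-05 and 0.00562. Hist2h2ac was at 74.5 and 130 CPM against 14.7 and 109, which overlapped. The core histone genes Hist1h3c and Hist1h4d overlapped between the classes too, with 61.7 and 94.5 CPM against 44.1 and 113 for Hist1h3c, and 69.4 and 134 against 44.1 and 86.3 for Hist1h4d.

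The variants ran the other way. H2afx was at 252 and 203 CPM in S RNA cells and at 423 and 441 in mitotic RNA cells, a log2 fold change of -0.94 (SE 0.17, edgeR adjusted p = 0.000428). Both libraries had the same order and nearly the same mitotic level. H2afz was at 1963 and 1737 CPM in S RNA cells and at 2220 and 2524 in mitotic RNA cells, without overlap, but its log2 fold change of -0.37 (SE 0.16) did not pass (edgeR adjusted p = 0.251).

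Library 1 and library 2, taken alone, gave opposite signs for 6 of the 17 members in this comparison: Hist1h2ak, Hist1h2bc, Hist1h3c, Hist1h3e, Hist1h4h and Hist1h4i. All 6 had overlapping classes, and none was called. How many of all genes gave opposite signs was not counted.

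**Figure D2:**
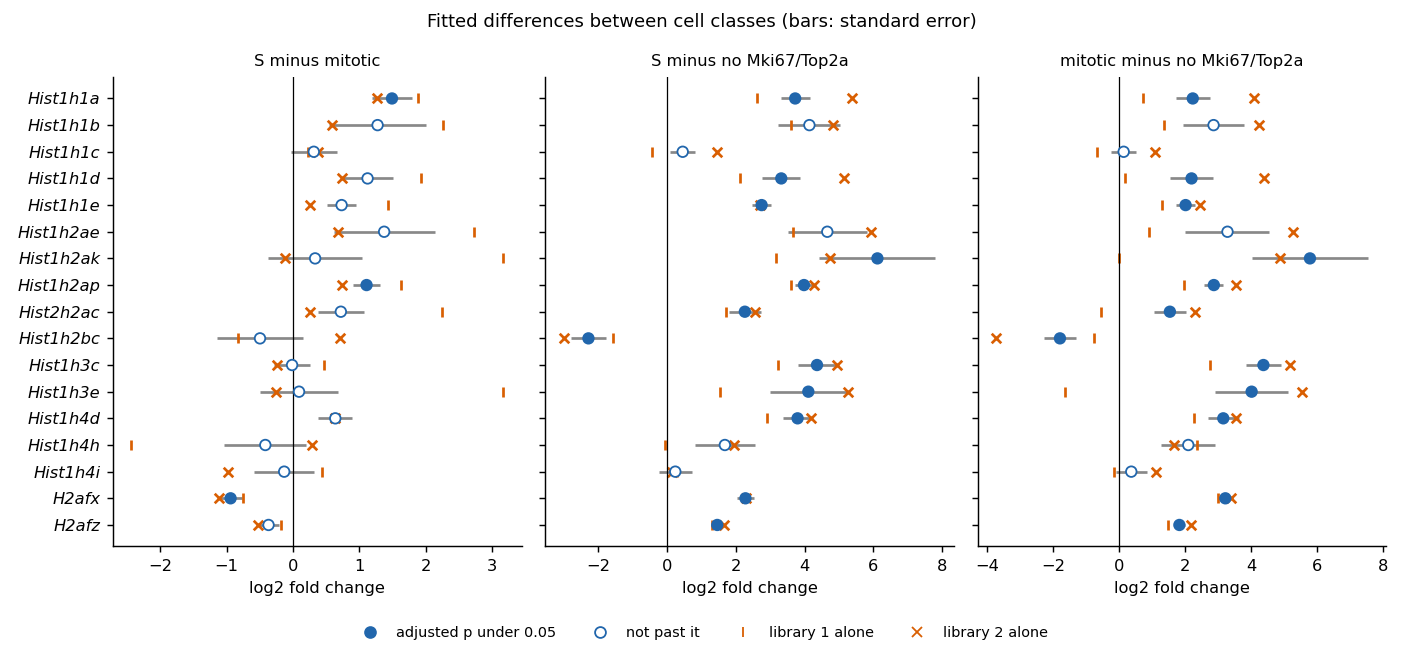
Fitted log2 fold changes (circles) with standard errors (bars) of the 17 tested members in the 3 comparisons of classes, and the differences of each library alone (orange). Filled circles passed the adjusted p of 0.05; H2afx is filled in all 3 panels, and Hist1h2bc lies below 0 in both comparisons with the cells without proliferation RNA.

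More cells could be used when S RNA and mitotic RNA cells were matched as a pair, with 374 cells per class in library 1 and 362 in library 2. This choice was made after seeing the data and its levels are given as a description. Hist1h1b had 1674 and 1764 CPM in S RNA cells and 439 and 885 in mitotic RNA cells, a ratio of 3.82 in library 1 and 1.99 in library 2. Hist1h2ap had ratios of 3.40 and 2.53, Hist1h1a of 3.95 and 2.64, Hist1h1e of 2.33 and 1.63, and Hist1h1d of 2.64 and 2.07. H2afx had ratios of 0.63 and 0.49. Of the 37 members that passed the filter in this pair, 22 were higher in S RNA cells in both libraries, 3 were lower in both (H2afx, H2afz and the H4 gene Hist4h4) and 12 went opposite ways. The ratio was the larger one in library 1 for 32 of the 37. By fitted log2 fold change, 31 of the 37 members and 5143 of all 10138 genes were higher in S RNA cells. Agreement between libraries, overlap and the library with the larger ratio were not counted over all genes, so those counts have no background. Smaller H2A, H2B and H3 genes higher in both libraries without overlap were Hist1h2an (ratios 5.08 and 1.88), Hist1h2ai (3.06 and 1.97), Hist1h2bj (2.90 and 1.68), Hist1h3b (2.62 and 1.87) and Hist1h2bm (10.3 and 1.31). The mitotic sum of Hist1h2bm in library 1 held 3 UMIs. Among the 12, Hist1h3c had 1.90 and 0.90, and Hist1h3a had 0.90 and 3.67.

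Against cells without proliferation RNA, 11 of the 17 members were called higher in S RNA cells, against 10.6% of all genes, and 1 lower, against 10.9%. The 11 were 3 H1, 3 H2A, 2 H3 and 1 H4 gene with H2afx and H2afz, and the H2B gene Hist1h2bc was the one lower. Hist1h2ak and Hist1h3e, which passed the filter through the cycling classes, are among the 11. The members' median log2 fold change was 3.32, or 2.75 with Hist1h2ak at its lower bound, against 0.01 over all genes.

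Hist1h2ap had 62.9 and 50.2 CPM in cells without proliferation RNA, 15.8-fold below its S level (log2 3.98, SE 0.27, edgeR adjusted p = 1.953e-08). Hist1h1a was at 27.3 and 4.36 CPM there, a log2 fold change of 3.73 (SE 0.43, edgeR adjusted p = 6e-06). Both genes lay far below either S value, with a wider gap between libraries for Hist1h1a. Hist1h1e, at 79.3 and 109 CPM, was 6.72-fold below its S level (log2 2.75, SE 0.27, edgeR adjusted p = 2.783e-06). Hist1h4d was at 8.20 and 6.54 CPM, a log2 fold change of 3.79 (SE 0.43, edgeR adjusted p = 2.186e-07).

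Both variants were called as well. H2afz was at 793 and 563 CPM in cells without proliferation RNA, a log2 fold change of 1.46 (SE 0.17, edgeR adjusted p = 4.642e-07). H2afx was at 51.9 and 41.4 CPM, a log2 fold change of 2.28 (SE 0.24, edgeR adjusted p = 6.457e-08).

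Hist1h3c had 3 UMIs in cells without proliferation RNA and 72 in S RNA cells, 23.9 times as much (exact counting interval 7.87 to 119). Hist1h3e had 1 and 23 UMIs, 22.9 times as much (3.73 to 945). Hist1h2ak had none in cells without proliferation RNA and 17 in S RNA cells, at least 5.65-fold higher when set against 3 counts over the class. All 3 were called, but their sizes rest on a few molecules. Taken alone, library 1 and library 2 gave log2 differences of 3.22 and 4.93 for Hist1h3c and of 1.52 and 5.27 for Hist1h3e, of 2.62 and 5.36 for Hist1h1a, and of 2.90 and 4.18 for Hist1h4d. Without the library block the calls of Hist1h2ak, Hist1h3e, Hist2h2ac and Hist1h2bc were lost.

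Hist1h1b, the highest Hist gene, had 139 and 58.9 CPM in cells without proliferation RNA against 1711 and 1676 in S RNA cells. The groups did not overlap and the log2 fold change was 4.14 (SE 0.90), yet the edgeR adjusted p was 0.0992. Hist1h2ae, at 38.3 and 8.72 CPM, likewise had a log2 fold change of 4.66 (SE 1.14) and an edgeR adjusted p of 0.120. Their calls depend on the setting. Of 10 alternatives with a test, 6 called Hist1h1b, with log2 fold changes of 3.54 to 4.40 and adjusted p-values of 1.198e-19 to 0.103 over the 10. For Hist1h2ae 7 of 10 did, with 3.19 to 4.68 and 1.284e-16 to 0.146. Those that called both were DESeq2, class rules of at least 6 UMIs, cells of at least 3000 UMIs, the highest doublet scores left out and the prior without the robust option.

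Hist1h2bc was the one member with the opposite order. It had 87.5 and 87.2 CPM in cells without proliferation RNA, 28.3 and 9.85 in S RNA cells and 51.4 and 5.63 in mitotic RNA cells. Its log2 fold change was -2.29 (SE 0.52, edgeR adjusted p = 0.00515) for S RNA cells and -1.79 (SE 0.47, edgeR adjusted p = 0.0157) for mitotic RNA cells. The highest cycling sum lay below both sums without proliferation RNA, and the sums hold 3 to 40 UMIs each. Hist1h2bc shares 30.1% of its 50-base stretches with 100 other annotated genes, some of them not histone genes, which limits what its own level means. Over all cells of each class the gene was at 74.5 and 63.8 CPM in cells without proliferation RNA, against 33.8 and 15.4 in S RNA cells. Taken alone, library 1 and library 2 gave -1.59 and -3.00 for S RNA cells, and -0.75 and -3.72 for mitotic RNA cells. Hist1h1c, Hist1h4h and Hist1h4i overlapped between S RNA cells and cells without proliferation RNA, with Hist1h1c at 137 and 54.5 CPM in the latter, and for Hist1h1c and Hist1h4h the libraries gave opposite signs.

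Mitotic RNA cells were compared with the same cells. Again 11 of the 17 members were called higher, against 8.35% of all genes, and 1 was called lower, against 10.0%. Hist1h2ak and Hist1h3e are again among the 11. The median log2 fold change of the members was 2.23, also with Hist1h2ak at its bound, against 0.0012 over all genes. H2afx had the smallest adjusted p of the members, with a log2 fold change of 3.22 (SE 0.22, edgeR adjusted p = 9.356e-12), and H2afz had 1.83 (SE 0.17, edgeR adjusted p = 6.658e-09). Hist1h2ap had 2.87 (SE 0.29, edgeR adjusted p = 1.123e-06), with 1.98 in library 1 and 3.53 in library 2.

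Some calls in this comparison rest on library 2. Hist2h2ac (log2 1.54, edgeR adjusted p = 0.0389) was 0.54 lower on the log2 scale in mitotic RNA cells of library 1, with 14.7 CPM against 21.9, and 2.29 higher in library 2, with 109 CPM against 21.8. Hist1h3e (log2 4.02, edgeR adjusted p = 0.0120) had no UMI in mitotic RNA cells of library 1 and 24 in those of library 2. Hist1h2ak had 15 mitotic UMIs, all in library 2, at least 4.98-fold higher than 3 counts over the other class. Hist1h1d (log2 2.20, edgeR adjusted p = 0.0257) differed by 0.19 in library 1 and 4.40 in library 2, and Hist1h1a (log2 2.23, edgeR adjusted p = 0.00466) by 0.74 and 4.10. Hist1h1c and Hist1h4i gave opposite signs in the libraries and were not called. Hist1h1b (log2 2.86, edgeR adjusted p = 0.208) and Hist1h2ae (log2 3.28, edgeR adjusted p = 0.263) were not called either, and 5 and 4 of 11 alternatives with a test called them.

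At a common depth of 2000 UMIs per cell, Hist1h1b RNA was found in 78.1% of S RNA cells in library 1 and 80.1% in library 2. The shares were 37.1% (95% exact binomial interval 34.2 to 40.1%) and 46.9% (43.9 to 49.99%) of mitotic RNA cells, and 12.0% (6.87 to 19.0%) and 8.44% (4.57 to 14.0%) of cells without proliferation RNA. The intervals cover counting error only, and since free RNA can give a UMI to any cell, the last shares are not read as expression. H2afx RNA was found in 34.8 and 36.3% of S RNA cells and in 54.1 and 57.0% of mitotic RNA cells. Shallower cells were left out, of which 56 and 66 were cells without proliferation RNA. Median summed Hist UMIs per 2000 were 8.0 and 10.0 in S RNA cells, and 1.0 and 2.0 in mitotic RNA cells, where the upper 10% of cells reached at least 9.0 and 18.0. Cells without any Hist UMI numbered 299 of 1064 and 260 of 1057 among mitotic RNA cells, so this class held both cells with little and cells with much Hist RNA.

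Summed Hist RNA showed the same order without a cutoff, as the plot along cycle RNA shows. Cells without mitotic RNA had 3954 CPM of summed Hist RNA in library 1 and 4480 in library 2. Cells with 4 or more mitotic UMIs per 2000 had 1031 and 1957. In library 2 the highest level, 5240 CPM, came at 1 mitotic UMI, and library 1 had its highest at 0. Over the same range H2afz went from 1738 to 2309 CPM in library 1 and from 1751 to 2523 in library 2. H2afx did not rise throughout. In library 1 it went from 275 CPM at 0 to 476 at 3 mitotic UMIs and was 374 at 4 or more. In library 2 it was 247, 489 and 481 CPM at these points. Along S RNA, summed Hist RNA was 2763 and 3675 CPM at 0 UMIs and 4569 and 5400 at 3 UMIs. The bin of 4 or more S UMIs held only 27 and 18 cells.

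**Figure D3:**
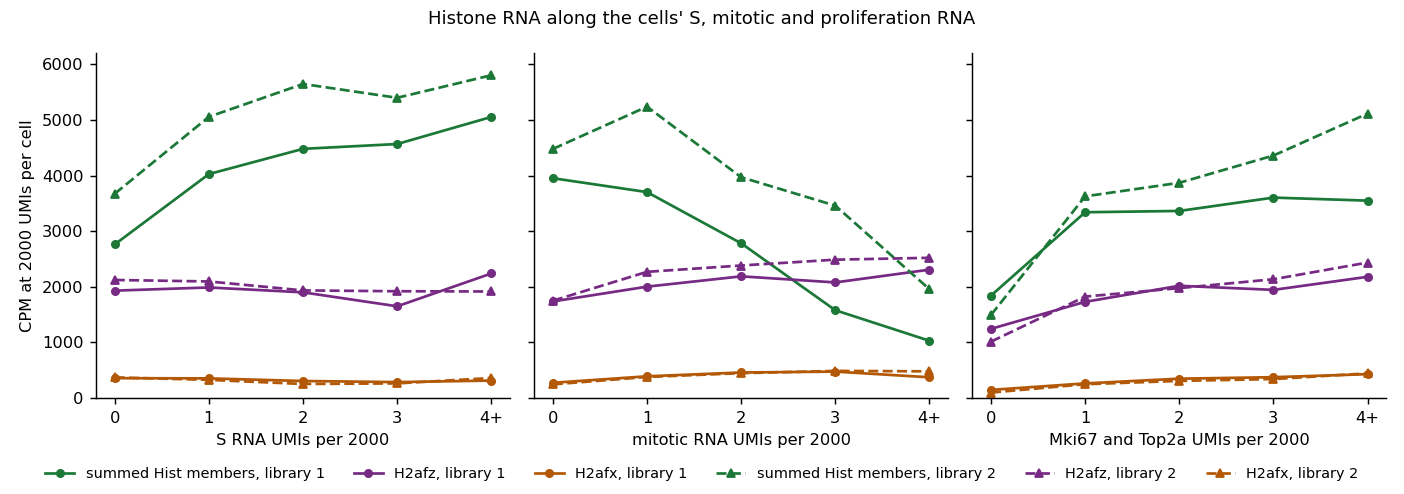
CPM of summed Hist members, H2afz and H2afx in cells thinned to 2000 UMIs (solid lines library 1, dashed lines library 2), against the UMIs of S genes, mitotic genes or Mki67 and Top2a in the same cell. Summed Hist RNA is lowest at 4 or more mitotic UMIs, at 1031 and 1957 CPM, and lowest at 0 Mki67 and Top2a UMIs along the other axis, at 1843 and 1495 CPM.

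Genes of the histone pathway outside the members were followed with 4 lists. Of 20 S phase genes, all tested, 18 were higher in S RNA than in mitotic RNA cells and none lower, with a median log2 fold change of 1.88. Cdc6, which loads the replicative helicase, was at 25.7 and 39.4 CPM in S RNA cells and at 0 in mitotic RNA cells, and Ccne2, Ccne1 and Cdt1 had log2 fold changes of 3.60, 3.08 and 2.93. Of 20 G2/M genes, 18 were lower and none higher, with a median of -1.96, led by the kinetochore gene Cenpf at -2.97. Against cells without proliferation RNA, 19 of the S phase genes were higher in S RNA cells (median log2 fold change 2.08) and 5 in mitotic RNA cells (median -0.03). All 20 G2/M genes were higher in mitotic RNA cells (median 4.66), and 18 of them were also higher in S RNA cells (median 2.51). S RNA cells thus also held more G2/M RNA than the cells without proliferation RNA. Both lists are neighbours in the cycle of the genes that define the classes, so they describe the classes and support nothing about the members.

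The histone supply list held 30 genes for transcription, 3' end processing, chaperoning and deposition of histones, and 26 were tested. In S RNA against mitotic RNA cells 8 were higher and none lower, with a median log2 fold change of 0.56. Chaf1b, a subunit of the chaperone that places new H3 and H4 behind the fork, was at 74.5 and 80.7 CPM in S RNA cells and at 4.90 and 7.50 in mitotic RNA cells (log2 3.56, SE 0.44, edgeR adjusted p = 3.79e-06). Slbp, which binds the stem-loop printed above, was at 234 and 291 CPM in S RNA cells, 39.2 and 67.5 in mitotic RNA cells and 76.5 and 78.5 in cells without proliferation RNA (S against mitotic log2 2.28, SE 0.23, edgeR adjusted p = 7.703e-08). Slbp was lowest in mitotic RNA cells in both libraries. Chaf1a and Eri1, an exonuclease that acts on histone mRNA 3' ends, had log2 fold changes of 2.04 and 1.53. Against cells without proliferation RNA, 17 of the 26 were higher in S RNA cells, led by the chaperone gene Asf1b at 3.45, and in mitotic RNA cells 7 were higher and 2 lower. The higher ones were led by Asf1b (2.53) and by Hjurp, the chaperone of Cenpa (2.51). Chaf1b was one of the lower ones (-1.81).

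Of 9 replacement histone genes outside the members, all tested, none was higher and 3 were lower in S RNA than in mitotic RNA cells. Of these, Cenpa is part of the mitotic rule and is only described. H2afv, a second H2A.Z gene, was at 301 and 439 CPM in S RNA cells and at 666 and 765 in mitotic RNA cells (log2 -0.96, SE 0.16, edgeR adjusted p = 0.000203). The linker variant H1f0 was at 180 and 116 CPM against 240 and 223 (log2 -0.68, SE 0.20, edgeR adjusted p = 0.0407). Against cells without proliferation RNA, 5 were higher in mitotic RNA cells, Cenpa among them, and H2afj was lower.

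The study asks about limbal and corneal cell fate, so members were also compared between cells with more Krt12 (the corneal keratin) and cells with more Krt15 (a limbal and basal keratin) UMIs, matched on depth and cycle class, with 713 cells per class in library 1 and 759 in library 2. Of 43 members tested among 10789 genes, 1 was called higher in Krt12 cells, against 11.0% of all genes, and 2 were called higher in Krt15 cells, against 12.4%. H2afx was at 383 and 366 CPM in Krt12 cells and at 320 and 296 in Krt15 cells, a 1.22-fold difference (log2 0.29, SE 0.08, edgeR adjusted p = 0.0329). Hist3h2a, an H2A gene, was at 13.2 and 6.26 CPM against 21.4 and 16.6 (log2 -0.997, SE 0.24, edgeR adjusted p = 0.0177). Hist1h4h was at 12.6 and 16.9 CPM against 15.99 and 32.4, which overlapped (log2 -0.69, SE 0.20, edgeR adjusted p = 0.0399). All 3 had the same sign in both libraries. The H2afx call was made under 5 of 11 alternatives with a test. It was lost with a second random draw of the matched cells (log2 0.22, edgeR adjusted p = 0.0995), when matched on depth only (0.10, edgeR adjusted p = 0.467), without depth matching (0.12, edgeR adjusted p = 0.336), at 2000 UMIs per cell (0.15, edgeR adjusted p = 0.395), with DESeq2 (adjusted p = 0.536) and without the library block (edgeR adjusted p = 0.212). Hist1h1a, not called here (log2 0.38, edgeR adjusted p = 0.0848), was called higher in Krt12 cells under 6 of the 11. Hist1h4h was called under 5 of the 11 and Hist3h2a under 9. Cycle class was matched, and 2 of 20 S phase genes (Mcm2 by 0.48 and Rrm2 by 0.35 on the log2 scale) and 1 of 20 G2/M genes (Ube2c by 0.25) were higher in Krt12 cells, shares no higher than the 11.0% of all genes, and none of either list was lower. Of 29 tested genes of the supply list, 1 was higher (Hat1, 0.56) and 3 were lower in Krt12 cells, led by the chaperone gene Npm1 (-1.02). Of 9 tested genes of the replacement list, none was higher and 1 was lower (H2afj, -0.79). These shares are no higher, or barely so, than the 11.0% of all genes higher and 12.4% lower in Krt12 cells, and are not read as a trait of the lists.

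For 24 of the 43 members the libraries gave opposite signs. Of the 43, 28 were higher in Krt12 cells in library 1 and 6 in library 2, while 14 were lower in both and 5 higher in both. The share of all genes with opposite signs was not counted, so these sign counts are not read as a trait of the members. The members' median log2 difference was 0.23 in library 1 and -0.61 in library 2, while the median over all genes was -0.0023 and -0.0055. Hist1h1b was at 1048 CPM in Krt12 and 1014 in Krt15 cells of library 1, and at 1027 and 1353 in library 2. Hist1h3e was at 11.8 and 10.1 CPM in library 1 and at 15.7 and 38.9 in library 2. Neither was called, and how the libraries differ could not be tested with 1 sample each. The plot by keratin class shows every tested member.

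**Figure D4:**
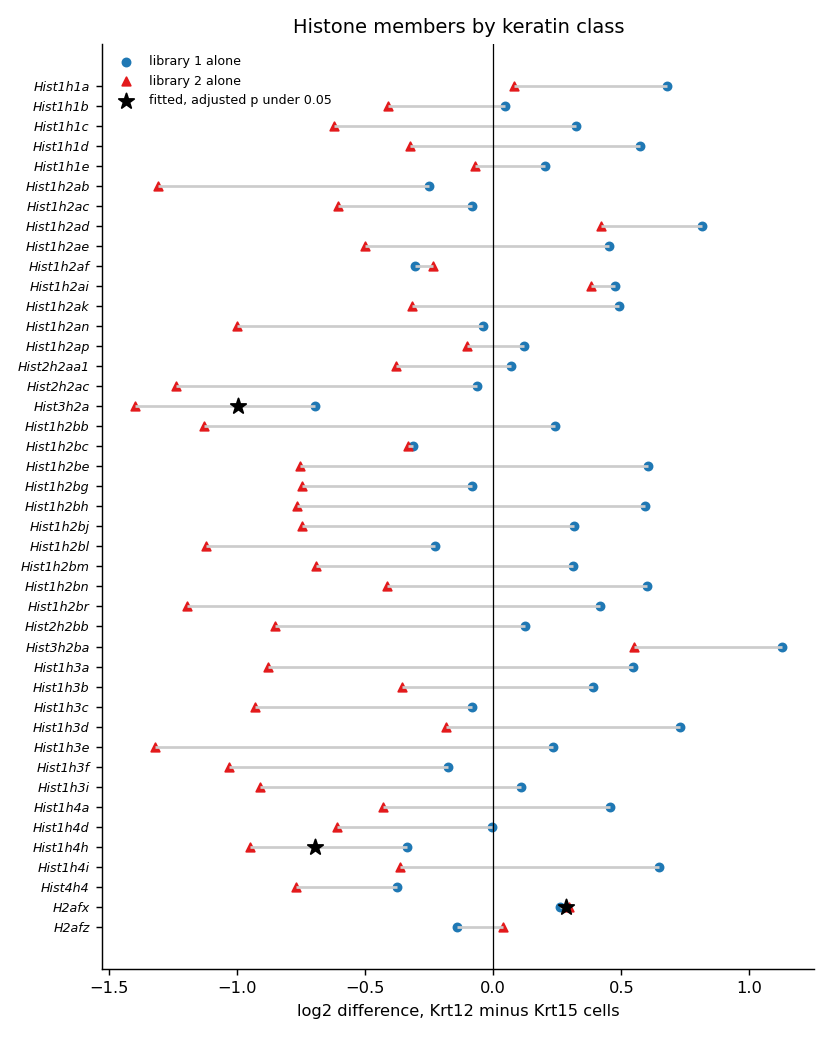
Log2 difference (Krt12 minus Krt15 cells) of the 43 tested members in library 1 (circles) and library 2 (triangles), with stars at the fitted value of the 3 members past the adjusted p of 0.05. Library 2 lies to the left of library 1 for most members, and H2afx shows nearly the same value in both.

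Whole-library levels differed as well, without a test since each library is 1 sample. Of the 42 members with at least 100 UMIs, 12 were at least 1.5-fold higher in library 2, against 6.61% of 10488 genes with as many UMIs, and 7 were at least 1.5-fold higher in library 1, against 3.01%. Higher in library 2 were Hist1h1e (399 against 624 CPM, 1.56-fold), Hist1h4d (73.6 against 113, 1.53-fold), Hist2h2ac (48.4 against 92.8, 1.92-fold) and Hist1h3f (7.03 against 15.3, 2.18-fold). The largest gap was in the other direction, in the H3 gene Hist1h3d with 410 UMIs in library 1 and 66 in library 2 (21.8 against 3.71 CPM, 5.89-fold with a counting interval of 4.53 to 7.76). Hist1h2ac was 2.57-fold, Hist2h4 2.40-fold, Hist1h4i 2.28-fold and Hist1h3a 1.99-fold higher in library 1. Hist3h2ba (4.53 against 2.42 CPM) was 1.87-fold and Hist3h2a 1.55-fold higher there. H2afx and H2afz were 1.04- and 1.07-fold higher in library 2. The median ratio of library 2 to library 1 was 1.24 for these members and 1.05 for all genes.

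Annotated transcripts run 37 to 2010 bases past the stem-loop in the 7 members higher in library 1 (median 752), with 752 in Hist1h3d, 2010 in Hist1h2ac and 37 in Hist1h3a. Of the 12 higher in library 2, 8 have a stem-loop, with 46 to 1153 bases after it (median 219.5), among them 57 in Hist2h2ac, 770 in Hist1h4d and 1153 in Hist1h1e, so long transcripts lay on both sides. Over the 29 members with a stem-loop and at least 100 UMIs, the library ratio and the bases after the loop had a Spearman rho of -0.37, as a description over genes that share libraries and sequence.

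**Figure D5:**
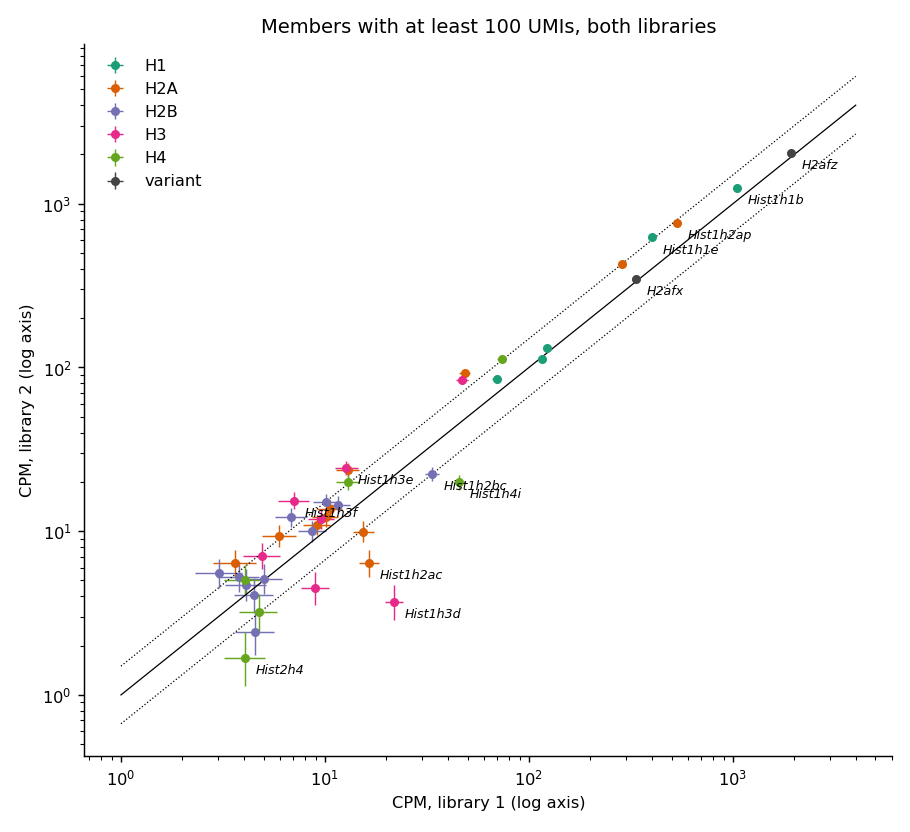
CPM of the 42 members with at least 100 UMIs in library 1 and library 2 (log axes) with exact Poisson intervals, coloured by histone class; the solid line is equality and the dotted lines are 1.5-fold. Hist1h3d lies farthest below the lines, at 21.8 and 3.71 CPM.

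The other members with at least 100 UMIs were low in both libraries. The H2A gene Hist2h2aa1 was at 9.16 CPM in library 1 and 10.9 in library 2, Hist1h2ab at 10.1 and 12.1 and Hist1h2af at 3.62 and 6.41. Of the H2A genes given above as ratios or matched UMIs, Hist1h2ak was at 12.9 and 23.8 CPM, Hist1h2ac at 16.5 and 6.41, Hist1h2an at 10.6 and 13.6 and Hist1h2ai at 5.97 and 9.33. Among H2B genes, Hist2h2bb was at 11.6 and 14.6 CPM, Hist1h2bm at 6.82 and 12.1 and Hist1h2be at 8.68 and 10.002, while Hist1h2br, Hist1h2bb, Hist1h2bn, Hist1h2bh and Hist1h2bl lay between 3.04 and 5.56 CPM. The H3 gene Hist1h3i was at 4.90 and 7.08 CPM, and the H4 gene Hist1h4a at 4.05 and 5.06. Hist2h2aa1 shares 89.4% and Hist1h2br 88.7% of its 50-base stretches with other genes, so their own levels are uncertain.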

How the data were processed

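The authors deposited a matrix of whole-number UMI counts per gene and barcode. Per the submitters' processing notes, Cell Ranger 3.1.0 and Seurat 5.0.0 were used with GRCm38 (mm10). Aligner settings, annotation and any equalising of depth between libraries: not given in the sources used here. Barcode endings 1 and 2 were taken as the libraries, which held 19001107 and 18030874 UMIs. The histone members, lists and tests were chosen with earlier results of these data known.

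Cells under 500 genes (475 barcodes) or at 20% mitochondrial UMIs or more were removed. Scrublet (scanpy 1.11.5, expected rate 3%) called 4 doublets among 6188 cells (0.0646%), so few that it has not worked. None was removed and doublets are assumed to remain. The alternative that leaves out the highest 3% of doublet scores rests on these same scores. It therefore does not show that a result holds without doublets.

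Classes were matched within each library in bins of 0.25 in log2 total UMIs, and counts summed per library and class were tested with edgeR 4.0.16 in R 4.3.3 (quasi-likelihood, robust, TMM, filterByExpr, library block), with 2 residual degrees of freedom in the cycle fit and 1 in the keratin fit. The prior that edgeR estimated over all genes had a median of 23.7 degrees of freedom in the cycle fit and 6.93 in the keratin fit. For most genes the spread behind a p-value was thus mainly borrowed from other genes. Adjusted p-values are Benjamini-Hochberg values over all genes tested. The libraries pair the sums by design, since the classes of 1 library come from the same sample. Single-library differences use a prior count of 0.5 and have no test. In 10 simulated data sets in which 200 genes had a log2 change of 1, the S against mitotic fit of 6322 genes recovered 21 to 36% of them with 0 to 7 false calls, and the keratin fit of 10789 genes 49 to 63% with 3 to 9. In that setting the former fit missed most 2-fold differences. The counts were drawn with the same spread for every gene, and without gaps between libraries that differ by class. Hist1h1b and Hist1h2ae had such gaps, so these rates do not cover them.

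Members with at least 100 UMIs are described by class, members with fewer only if called, and of each list at most the 4 called genes of largest change. Alternatives were DESeq2 1.42.0, other scaling, filters, depth matches, class thresholds and cell filters, and single libraries. Chosen after seeing the data were the pairwise match and edgeR's prior without the robust option.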

Additional observations from a re-analysis of the deposited data

How the results depend on the processing

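With 2 libraries and few matched cells, most members fell under the low-count filter. In some fits edgeR estimated an infinite prior degree of freedom, so a gene's own gap between libraries did not enter its p-value: the pairwise matches of S RNA with each other class, the cycle fits without a filter or thinned to 2000 UMIs, and the keratin fit without a filter. Counts from these fits support nothing here, and they are kept out of the tally that follows. For the 30 calls of members, 260 of 301 values under the other alternatives with a test kept the call, 41 lost it and 0 reversed, while DESeq2 gave 2 no adjusted p. Of 60 single-library values, 2 reversed the sign of the call. Another 6 moved by more than the spread between the 2 libraries. That spread grows with the gap between the libraries, so the count of moved values cannot show whether they agree.

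In S RNA against mitotic RNA cells, where 2 members were called higher and 1 lower, the number higher was 4 with cells of at least 3000 UMIs, with the highest doublet scores left out and under 10% mitochondrial UMIs (2.90%, 2.46% and 2.33% of all genes). It was 6 with class sums of at least 6 UMIs (2.88% of all genes), 5 with edgeR's prior not estimated robustly (2.53%) and 12 of 37 without depth matching (8.59%). DESeq2 called 1 higher (0.411%) and 0 lower (0.791%). With an infinite prior, 4 were higher without the low-count filter (1.39%), and the pairwise match called 17 of 37 higher (10.9%) and 2 lower (8.02%).

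The libraries pair the sums as a replicate block. Without the block, S RNA against mitotic RNA cells had 0 members higher (1.06% of all genes) and 1 lower (1.41%). S RNA against no-proliferation-RNA cells had 9 higher (7.34%) and 0 lower (6.07%). Mitotic RNA against those cells had 5 higher (5.28%) and 0 lower (5.3%). In the keratin comparison 0 were called in either direction without the block. Of all genes, 5.27% were then higher in Krt12 cells and 6.05% in Krt15 cells. Each of these shares of all genes was below the share with the block.

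Against cells without proliferation RNA, S RNA cells had 19 of 37 members higher without depth matching (11.0% of all genes) and, with an infinite prior, 20 of 62 without the filter (5.02%), against 11 of 17. Mitotic RNA cells had 7 with DESeq2 (3.08%) and, with an infinite prior, 18 without the filter (4.13%). Their 1 lower member was lost (0) with DESeq2 (2.99% of all genes) and, with an infinite prior, at 2000 UMIs (8.32%).

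In the keratin comparison, the 1 member higher in Krt12 cells was H2afx in the main comparison. It was Hist1h1a with a second draw (11.8% of all genes), when matched on depth only (12.0%) and without depth matching (15.2%). Both, so 2, were called with cells of at least 3000 UMIs (13.1% of all genes), without the highest doublet scores (11.2%), under 10% mitochondrial UMIs (14.1%) and, with an infinite prior, without the filter (9.26%), and 0 with DESeq2 (3.87%) or at 2000 UMIs (9.41%). The 2 higher in Krt15 cells became Hist3h2a alone (1) with cells of at least 3000 UMIs (13.9%) or without the highest doublet scores (12.7%). They became 6 without depth matching (15.6%) or under 10% mitochondrial UMIs (14.8%), 5 at 2000 UMIs (9.87%), 4 when matched on depth only (13.0%), 7 without the filter with an infinite prior (10.4%) and 0 with DESeq2 (4.65%), while 8 members had an unadjusted edgeR p under 0.05. Hist3h2a was among the called in each of these but DESeq2. The causes were not tested.

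The mean share of cells with Hist1h1b RNA moved with depth, as it must. In S RNA cells it was 66.6% at 1000 UMIs, 87.8% at 4000 and 90.5% at raw depth, in mitotic RNA cells 31.4%, 53.7% and 61.5%, and in cells without proliferation RNA 16.8% at 4000 and 19.1% at raw depth, so the order of the classes was the same at each depth. Hist1h4i, not called in S RNA against mitotic RNA cells, had a log2 fold change of 0.46 without depth matching, the reverse of its matched sign. In mitotic RNA against no-proliferation-RNA cells, the single libraries gave -1.64 and 5.53 for Hist1h3e and -0.54 and 2.29 for Hist2h2ac.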
